A study of Mus musculus with 8 samples.

Results

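The inhibitor of DNA binding (ID) genes and the E-protein genes encode helix-loop-helix transcription regulators that act on each other as partners. The 6 genes described here are Id1, Id2 and Id3 on the ID side and Tcf3, Tcf4 and Tcf12 on the E-protein side, among 18193 genes named on the arrays. They were chosen by symbol, and all 19 probe sets annotated to 1 of these symbols alone were read. For each gene the main probe set was the one with the highest mean over the 8 arrays. The main probe sets of all 6 genes passed the filter on dim signals, which asked for a value above the array's own median in at least 2 arrays, as did 10 of the 13 other probe sets.

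RNA came from CD4 T cells isolated from the spleens of mice aged 8 weeks, either lacking interferon-gamma receptor 1 (KO) or wild type (WT). All cells were stimulated with antibodies to CD3 and CD28 for 15 h, and db-cAMP, a cell-permeable form of the second messenger cyclic AMP, or vehicle was present during the last 3 h. The groups were KO with db-cAMP, KO with vehicle, WT with db-cAMP and WT with vehicle, each measured on 2 Affymetrix arrays. No strain is named in the labels. Replicates are called biological there, but no source used here ties each to its own mouse or culture, and p-values then cover only the variation among these arrays, which may be technical. For the 4 KO arrays, titles, source names and genotype entries say KO and were followed, although a description field names WT cells.

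E proteins bind DNA at E-boxes as dimers and activate or repress genes of lymphocyte development, among them genes of the antigen receptor and of cell cycle exit. ID proteins carry the helix-loop-helix dimerisation region without the basic DNA-binding region, so an ID protein paired with an E protein cannot bind DNA. In T cells Id3 is known to be induced by antigen receptor signalling through ERK and EGR factors, whereas Id2 is prominent in effector T cells and innate lymphocytes.

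Ifngr1, the gene targeted in KO mice, had signals of 1056 and 1272 in KO db-cAMP arrays, 439 and 378 in KO vehicle arrays, 7319 and 8201 in WT db-cAMP arrays and 905 and 873 in WT vehicle arrays. It was lower in KO than in WT under each treatment, but not near 0, and where its probes lie relative to the targeted part is unknown here. Gbp2, a gene induced by interferon-gamma, had signals of 384 to 678 in KO arrays and 6960 to 25753 in WT arrays. The 9 measured markers of CD4 T cells summed to between 81534 and 92153 in the 8 arrays, and Cd4 itself lay between 253 and 539. Single CD4 T cell markers moved all the same. Under db-cAMP 1 of the 9 was higher and 0 were lower in KO cells, 2 were higher and 5 lower in WT cells, and 5 were higher and 2 lower in KO than in WT cells at the threshold. Of all genes tested, 8.38%, 35% and 29.2% passed in these comparisons, in that order. In WT cells Zap70 changed by -0.74 log2, Trat1 by -0.54 and Cd3e by -0.42, and Lat by 0.36 and Cd28 by 0.35. The 3 measured erythroid markers were below the array median in every array. Signals of 18S rRNA controls were 38701 and 31397 in KO db-cAMP arrays, 24553 and 26853 in KO vehicle arrays, 37628 and 36892 in WT db-cAMP arrays and 28575 and 25511 in WT vehicle arrays, so they were higher under db-cAMP in both genotypes. The mean of the poly-A controls was 3007 to 4238 in KO arrays and 1019 to 1486 in WT arrays. The 3′ to 5′ signal ratios, which reflect RNA quality and labelling, also separated the genotypes. They were 0.513 to 0.623 in KO arrays and 0.353 to 0.441 in WT arrays for 18S rRNA, 0.779 to 0.850 in KO arrays and 0.734 to 0.769 in WT arrays for Gapdh, and 1.34 to 1.44 in KO arrays and 1.46 to 1.72 in WT arrays for Actb. The part of these differences in the results below was not tested.

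The sequences before the transcription start are shown for the 3 genes that changed under db-cAMP in WT cells, because cAMP-responsive factors and E proteins are known to act at short DNA elements near the start. They were taken from RefSeq on build GRCm38.p6, 250 bases each, written 5′ to 3′ on the strand of the gene, at chr4:136143572-136143821 (plus strand) for Id3, chr12:25096093-25096342 (minus strand) for Id2 and chr10:80433636-80433885 (minus strand) for Tcf3. Capitals mark each match to CANNTG, the E-box, or to TGACG on either strand, the shorter form of the cAMP response element (CGTCA when read on the opposite strand). These motifs did not overlap each other.
Id3: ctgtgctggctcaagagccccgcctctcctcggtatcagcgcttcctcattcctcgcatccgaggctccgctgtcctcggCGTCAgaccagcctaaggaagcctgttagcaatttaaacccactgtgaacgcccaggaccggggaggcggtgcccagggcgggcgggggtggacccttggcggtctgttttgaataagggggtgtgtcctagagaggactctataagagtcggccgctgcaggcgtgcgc
Id2: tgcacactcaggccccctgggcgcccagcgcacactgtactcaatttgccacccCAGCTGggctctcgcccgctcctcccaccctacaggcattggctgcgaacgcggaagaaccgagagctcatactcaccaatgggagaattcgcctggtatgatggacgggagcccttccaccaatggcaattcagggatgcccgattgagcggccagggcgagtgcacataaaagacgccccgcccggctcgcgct
Tcf3: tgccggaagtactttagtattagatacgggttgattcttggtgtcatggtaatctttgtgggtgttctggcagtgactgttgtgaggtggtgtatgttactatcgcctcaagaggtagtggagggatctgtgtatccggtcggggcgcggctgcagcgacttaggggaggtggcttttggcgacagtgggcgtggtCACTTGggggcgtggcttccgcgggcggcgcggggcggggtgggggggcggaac
The Id3 sequence held 1 TGACG element, on the opposite strand, 170 to 166 bases before the start, and 0 E-boxes. The Id2 sequence held 1 E-box, CAGCTG, 196 to 191 bases before the start, and 0 TGACG elements, with 3 matches to CCAAT. The Tcf3 sequence held 1 E-box, CACTTG, 54 to 49 bases before the start. Of 32851 promoters in the table, 66.2% held an E-box, 17.8% a TGACG element and 33.8% a CCAAT element, so each of these matches is common and describes the letters of the window only. Neither GCGNGGGCG, an EGR-type motif found in 4.70% of promoters, nor TTCNNNGAA, a STAT-type motif found in 7.02%, occurred in the windows of Id2, Id3 or Tcf3 on either strand.

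Under db-cAMP, Id2 and Id3 moved in opposite directions. Id3 fell in both genotypes, about 2.29-fold in KO cells and 4.70-fold in WT cells, while Id2 rose 2.05-fold in WT cells. In KO cells, Id2 was the 1 gene of the 6 that rose and Id3 the 1 that fell, where 8.38% of the 12091 genes tested changed (4.7% higher and 3.68% lower). In WT cells, Id2 and Tcf3 were the 2 that rose and Id3 the 1 that fell, where 35% of all genes changed (16.4% higher and 18.6% lower). Of the 10 other probe sets tested, 0 passed limma's test in KO cells (1 at an unadjusted p under 0.05, the dim Tcf12 probe set 1439209_at), against 4.79% of all 26527 probe sets tested, and 1 passed in WT cells, against 26%. These counts describe the members and single out no enrichment.

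Id3, whose protein restrains E proteins and is used as a sign of antigen receptor signal strength, had signals of 1118 and 1032 in KO db-cAMP arrays and 2523 and 2415 in KO vehicle arrays. It had 422 and 463 in WT db-cAMP arrays and 2347 and 1874 in WT vehicle arrays. All 4 db-cAMP arrays lay below all 4 vehicle arrays, and the KO db-cAMP arrays lay between the WT db-cAMP arrays and the rest. Group means were 1075 ± 60.8 with db-cAMP against 2469 ± 76.3 with vehicle in KO cells, and 442 ± 29.5 with db-cAMP against 2111 ± 335 with vehicle in WT cells (SD, n = 2 arrays each). The log2 change under db-cAMP was -1.20 ± 0.12 in KO cells (standard error, limma adjusted p = 2.64e-05) and -2.23 ± 0.12 in WT cells (limma adjusted p = 8.17e-09). Counted from the strongest fall, Id3 ranked 188 in KO cells and 57 in WT cells among the 12091 genes. In bulk RNA, fewer Id3-expressing cells and less Id3 RNA per cell cannot be told apart.

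The fall of Id3 was smaller in KO cells than in WT cells. The interaction, which is the KO change minus the WT change, was 1.04 ± 0.17 on the log2 scale (limma adjusted p = 0.00122). Compared under db-cAMP, Id3 was higher in KO cells than in WT cells by 1.27 ± 0.12 log2 (limma adjusted p = 3.22e-06). Under vehicle the same difference was 0.23 ± 0.12 with a 95% interval of -0.02 to 0.49 (limma adjusted p = 0.254). The order of Id3 levels was therefore WT db-cAMP, KO db-cAMP and then the vehicle groups, which did not pass the test against each other.

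**Figure D1:**
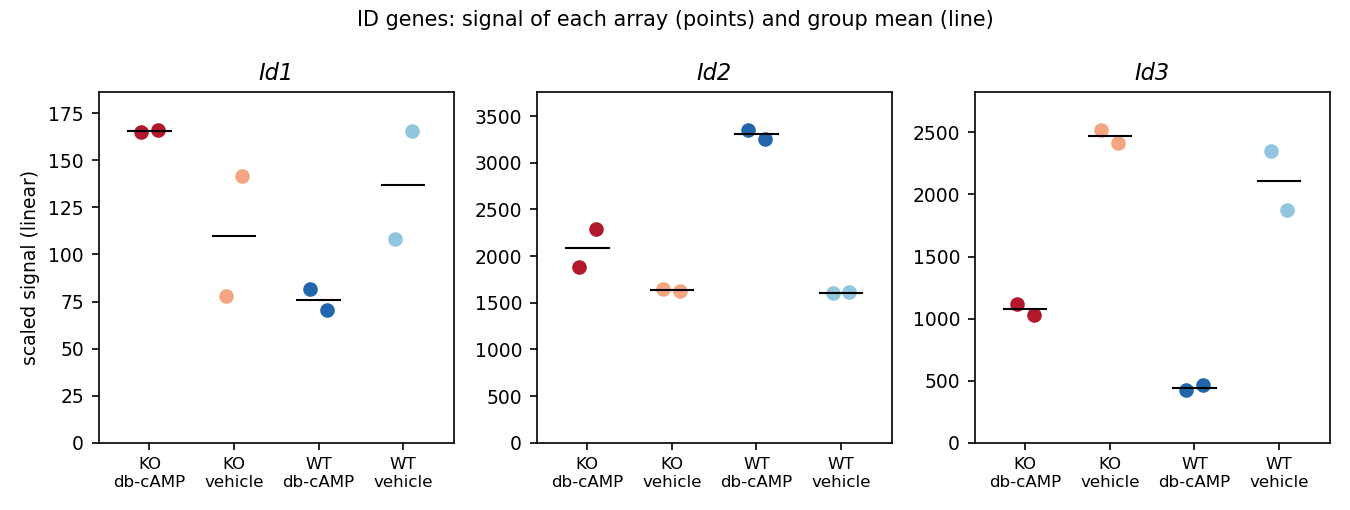
Scaled linear signal (vertical axis) of the main probe sets of Id1, Id2 and Id3 in each array (points), with the group mean as a line, for KO db-cAMP, KO vehicle, WT db-cAMP and WT vehicle cells. Id3 is lowest in WT db-cAMP cells (mean 442) and Id2 is highest there (mean 3307), while Id1 stays between 70.3 and 166.

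Id2, whose protein is the ID partner most used by effector and innate lymphocytes, had signals of 1881 and 2286 in KO db-cAMP arrays and 1647 and 1625 in KO vehicle arrays. It had 3355 and 3258 in WT db-cAMP arrays and 1601 and 1617 in WT vehicle arrays. Both WT db-cAMP arrays stood above every other array, and the KO db-cAMP arrays lay above the 4 vehicle arrays. Means were 2084 ± 287 with db-cAMP against 1636 ± 15.1 with vehicle in KO cells, and 3307 ± 68.5 with db-cAMP against 1609 ± 11.1 with vehicle in WT cells (SD, n = 2 arrays each).

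Id2 rose by 0.34 ± 0.10 log2 in KO cells (limma adjusted p = 0.0463) and by 1.04 ± 0.10 log2 in WT cells (limma adjusted p = 1.87e-06). The change in KO cells lay close to the threshold and passed it in only 4 of 18 alternative settings, whose adjusted p ran from 0.0236 to 0.712. Leaving out 1 array moved that p past the threshold for 7 of the 8 arrays, and without KO db-cAMP replicate 2 the change was 0.20. The interaction was -0.70 ± 0.14 (limma adjusted p = 0.00479), and under db-cAMP Id2 was lower in KO cells than in WT cells by a log2 difference of -0.67 ± 0.10 (limma adjusted p = 0.000153). Under vehicle the difference was 0.02 ± 0.10 with a 95% interval of -0.18 to 0.23 (limma adjusted p = 0.930).

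The second Id2 probe set, 1422537_a_at, gave 565 and 845 in KO db-cAMP arrays, 545 and 660 in KO vehicle arrays, 1276 and 1366 in WT db-cAMP arrays and 446 and 536 in WT vehicle arrays. It was highest in WT db-cAMP cells too, and in KO cells its groups overlapped. In a fit over all 26527 probe sets that passed the filter it rose by 1.42 ± 0.18 log2 in WT cells (limma adjusted p = 5.04e-05), and its change in KO cells was 0.20 ± 0.18 (limma adjusted p = 0.671). In that fit its interaction was -1.22 ± 0.25 (limma adjusted p = 0.011), and without KO vehicle replicate 2 it was -1.09 (limma adjusted p = 0.0594). The main probe set in KO cells had an adjusted p of 0.0760 in that fit. The third probe set, 1453596_at, was dim at 79.6 to 157 and passed no comparison.

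Id2 is also expressed by NK cells, and the summed signal of the 4 measured NK cell markers was 1632 to 1800 in KO db-cAMP arrays, 1275 to 1279 in KO vehicle arrays, 2118 to 2179 in WT db-cAMP arrays and 1439 to 1657 in WT vehicle arrays. Under db-cAMP, 1 of the 3 markers tested rose in KO cells and 0 fell, while 2 rose in WT cells and 1 fell. Of all genes tested, 8.38% passed in KO cells and 35% in WT cells. The log2 changes in KO and WT cells were 1.18 and 0.83 for Klrd1, 0.27 and 1.59 for Eomes and -0.53 and -1.01 for Nkg7. Ncr1, a receptor gene that defines NK cells, was below the array median in every array, at 4.6 to 35.7. In the list for natural killer T and gamma-delta T cells, the 3 measured genes summed to 328 to 334 in KO db-cAMP arrays, 208 to 224 in KO vehicle arrays, 508 to 552 in WT db-cAMP arrays and 293 to 301 in WT vehicle arrays. The largest part was Cd1d1, with group means of 152 to 397. Cd1d1 encodes a molecule that natural killer T cells recognise on other cells, and it does not mark natural killer T cells. It was the 1 that passed for db-cAMP against vehicle, in WT cells. Zbtb16 and Sox13 were dim, with group means of 52.5 to 76.8 and 11.6 to 55.6, and passed no comparison. The 8 dendritic cell markers summed to 1855 to 2204 in KO db-cAMP arrays, 1798 to 1912 in KO vehicle arrays, 2732 to 3236 in WT db-cAMP arrays and 2206 to 2392 in WT vehicle arrays. The 1 that passed for db-cAMP against vehicle was H2-Ab1, in WT cells. The largest parts were H2-Aa, H2-Ab1 and Cd74, with group means of 818 to 1363, 385 to 654 and 316 to 704, while Itgax lay at 32.4 to 49.4. Of the 6 tested, 3 were lower in KO than in WT cells under db-cAMP and 1 under vehicle, and 0 were higher. Of all genes tested, 13.3% and 5.78% were lower in these comparisons. Of the 2 CD8 T cell markers tested, 0 passed for db-cAMP against vehicle in either genotype. Cd8b1 was lower in KO than in WT cells, by a log2 difference of -0.89 under db-cAMP (limma adjusted p = 0.00514) and -0.92 under vehicle (limma adjusted p = 0.0121). Cd8a did not pass in either. Klrd1, Nkg7 and Eomes can be expressed by NK cells and by activated CD4 T cells. The part of other cells in the Id2 signal was not tested.

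Id1, which encodes the ID protein best known from stem and progenitor cells, was dim, with its signals above the array median in 7 of 8 arrays. It had 165 and 166 in KO db-cAMP arrays, 78.1 and 142 in KO vehicle arrays, 81.5 and 70.3 in WT db-cAMP arrays and 108 and 166 in WT vehicle arrays. Under db-cAMP it lay above vehicle in the KO arrays and below vehicle in the WT arrays, without overlap in either. The log2 change was 0.63 ± 0.37 in KO cells (limma adjusted p = 0.386) and -0.78 ± 0.37 in WT cells (95% interval -1.58 to 0.02, limma adjusted p = 0.124), and neither passed. The interaction of 1.41 ± 0.52 did not pass either (limma adjusted p = 0.109). Under db-cAMP, Id1 was higher in KO cells than in WT cells by 1.08 ± 0.37 (limma adjusted p = 0.0426). This call was lost without any 1 of the 4 arrays compared, with values between 0.98 and 1.18 and adjusted p of 0.0671 to 0.170.

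**Figure D2:**
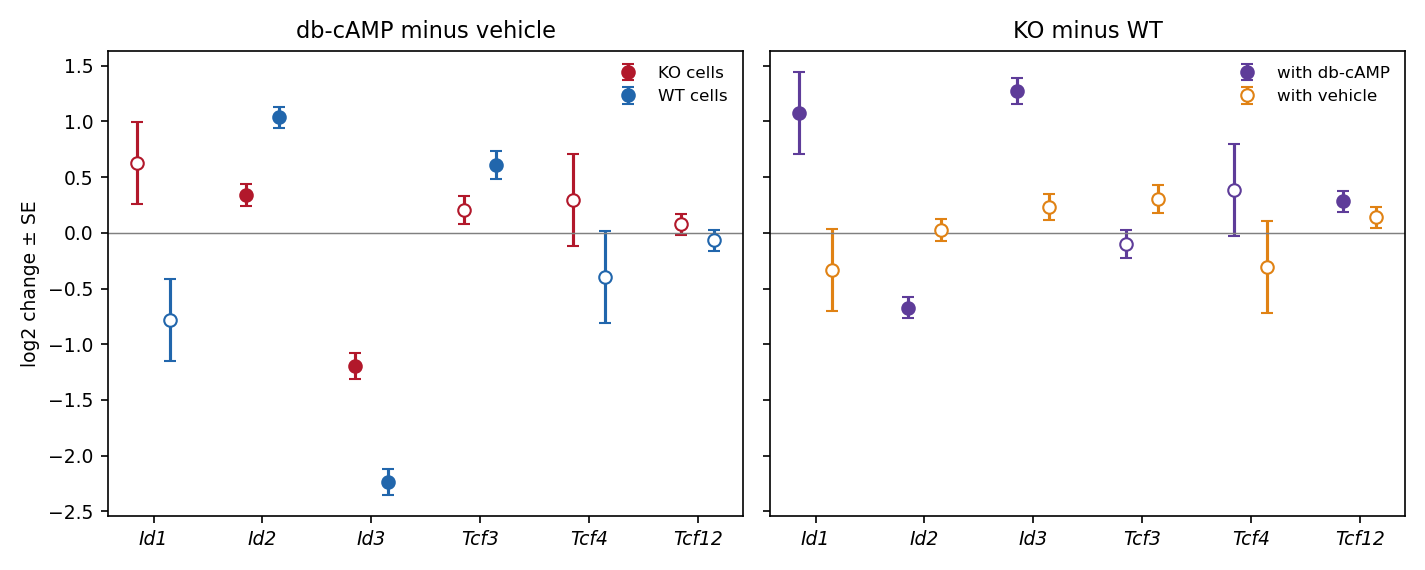
Log2 change (vertical axis) of each of the 6 genes with the standard error of the limma fit as bars, for db-cAMP minus vehicle in KO and WT cells (left) and KO minus WT with db-cAMP and with vehicle (right); filled symbols have an adjusted p under 0.05 and open ones do not. On the left Id3 lies below 0 in both genotypes (-1.20 in KO, -2.23 in WT) and Id2 above 0 (0.34 in KO, 1.04 in WT), and on the right every vehicle symbol is open.

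Among the E-protein genes, Tcf3 rose in WT cells under db-cAMP, and neither Tcf12 nor Tcf4 passed the test in either genotype. Tcf3, which encodes the E12 and E47 proteins, gave 1566 and 1460 in KO db-cAMP arrays and 1289 and 1336 in KO vehicle arrays, with 1875 and 1408 in WT db-cAMP arrays and 1125 and 1007 in WT vehicle arrays. The db-cAMP arrays lay above the vehicle arrays of the same genotype, and the WT db-cAMP arrays were the most spread. The log2 change was 0.20 ± 0.13 in KO cells with a 95% interval of -0.07 to 0.48 (limma adjusted p = 0.415) and 0.61 ± 0.13 in WT cells (limma adjusted p = 0.00178), a 1.52-fold rise. The interaction was -0.40 ± 0.18 (limma adjusted p = 0.185), so a difference between genotypes in the Tcf3 response was not shown. Without WT db-cAMP replicate 1, the higher of the pair, it was -0.20 (limma adjusted p = 0.488), and without WT db-cAMP replicate 2 it was -0.61 (limma adjusted p = 0.0291).

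The probe sets of Tcf3 disagreed. Probe set 1427764_a_at gave 731 and 557 in KO db-cAMP arrays, 584 and 742 in KO vehicle arrays, 449 and 369 in WT db-cAMP arrays and 520 and 479 in WT vehicle arrays. Its lowest arrays were those of WT cells with db-cAMP, where the main probe set was high, and its WT change was -0.29 ± 0.17 in the fit over probe sets (limma adjusted p = 0.263). When the probe sets of each gene were averaged, the WT change of Tcf3 was 0.23 (limma adjusted p = 0.274). Under db-cAMP, 1427764_a_at was higher in KO cells than in WT cells by 0.64 ± 0.17 (limma adjusted p = 0.016), against -0.10 ± 0.13 for the main probe set (limma adjusted p = 0.596). That difference was 0.45 without KO db-cAMP replicate 1 (limma adjusted p = 0.185) and 0.50 without WT db-cAMP replicate 2 (limma adjusted p = 0.117). The third probe set, 1452542_x_at, had signals of 83.1 to 167 and passed no comparison. Which Tcf3 transcripts each probe set detects is unknown here.

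**Figure D3:**
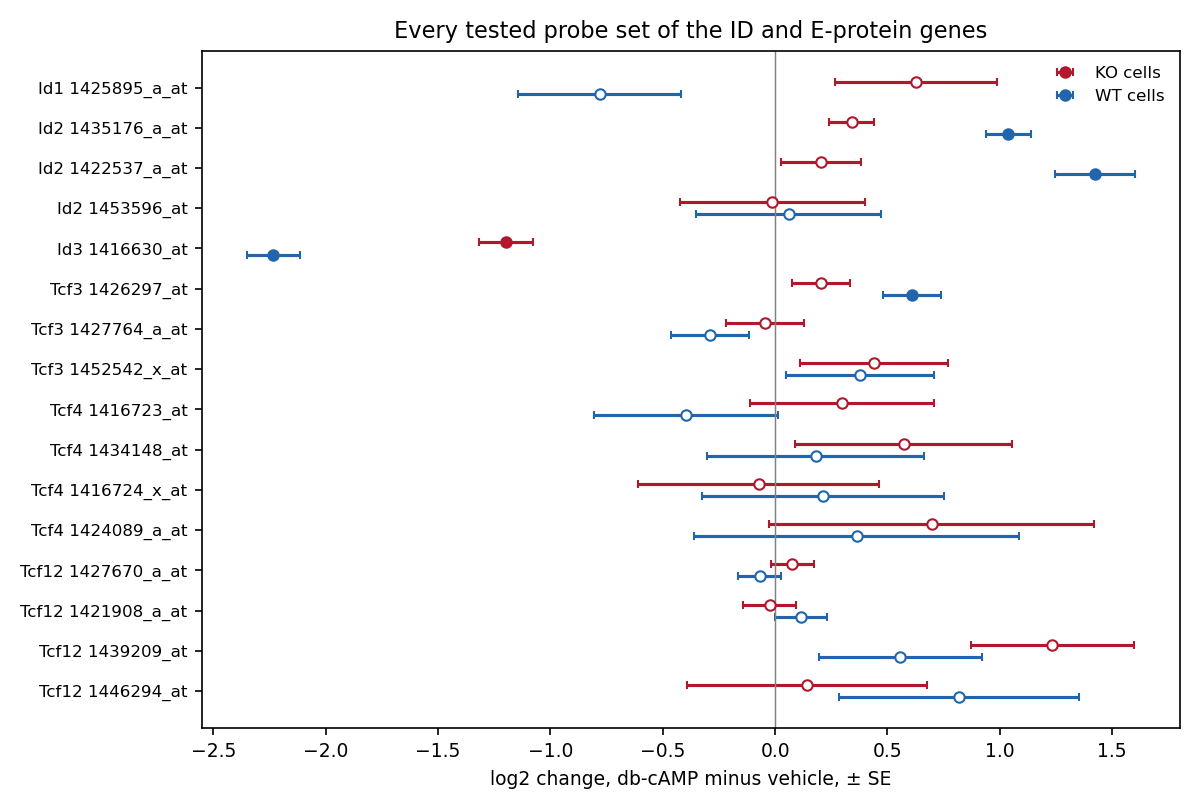
Log2 change (horizontal axis) under db-cAMP against vehicle in KO and WT cells for each probe set of the 6 genes that passed the filter, from the fit over all probe sets, with standard errors as bars and filled symbols for adjusted p under 0.05. Both bright probe sets of Id2 lie right of 0 in WT cells (1.04 and 1.42), whereas those of Tcf3 lie on opposite sides (0.61 and -0.29).

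Tcf12, which encodes the E protein HEB of thymocytes and T cells, had signals of 4620 and 5105 in KO db-cAMP arrays, 4735 and 4481 in KO vehicle arrays, 4361 and 3648 in WT db-cAMP arrays and 4043 and 4323 in WT vehicle arrays. Its db-cAMP and vehicle arrays overlapped within each genotype, and every KO array lay above every WT array. The db-cAMP change was 0.08 ± 0.09 in KO cells (95% interval -0.12 to 0.28, limma adjusted p = 0.740) and -0.07 ± 0.09 in WT cells (95% interval -0.27 to 0.13, limma adjusted p = 0.627). The interaction was 0.14 (limma adjusted p = 0.572).

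Between genotypes, Tcf12 was higher in KO cells than in WT cells by 0.28 ± 0.09 log2 under db-cAMP (limma adjusted p = 0.0344) and differed by 0.14 ± 0.09 under vehicle (limma adjusted p = 0.416). The 3′ to 5′ ratios and poly-A controls differed between the same genotypes, as given above, and their part in this difference and in that of Tcf3 probe set 1427764_a_at was not tested. The db-cAMP difference did not pass without KO db-cAMP replicate 2 (0.21, limma adjusted p = 0.252) or without WT db-cAMP replicate 2 (0.16, limma adjusted p = 0.296). With arrays scaled to an equal 75th percentile, which lowered the median of all genes in this comparison to -0.12, it was 0.16 (limma adjusted p = 0.231).

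The second Tcf12 probe set, 1421908_a_at, had 1130 and 1126 in KO db-cAMP arrays, 1180 and 1117 in KO vehicle arrays, 832 and 858 in WT db-cAMP arrays and 856 and 709 in WT vehicle arrays. All KO arrays again lay above all WT arrays. It was higher in KO cells by 0.42 ± 0.12 under db-cAMP (limma adjusted p = 0.0191) and by 0.56 ± 0.12 under vehicle (limma adjusted p = 0.00742) in the fit over probe sets. The db-cAMP difference missed the threshold without any 1 of the 4 arrays compared, at 0.39 to 0.44 with adjusted p of 0.0540 to 0.0970. The vehicle difference was 0.52 without KO vehicle replicate 1 (limma adjusted p = 0.0686) and 0.42 without WT vehicle replicate 2 (limma adjusted p = 0.0741). The other 3 probe sets of Tcf12 were dim, between 15.4 and 195 in all arrays, and the 2 of them that were tested passed no comparison.

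Tcf4, which encodes the E protein E2-2 and is prominent in plasmacytoid dendritic cells and B cells, was dim. Its main probe set gave 128 and 141 in KO db-cAMP arrays, 117 and 99.8 in KO vehicle arrays, 67.9 and 150 in WT db-cAMP arrays and 187 and 97.2 in WT vehicle arrays. The arrays of WT groups were too spread to order, and Tcf4 passed 0 of 5 comparisons with limma, also at an unadjusted p under 0.05. Its log2 change was 0.30 ± 0.41 in KO cells (limma adjusted p = 0.78) and -0.40 ± 0.41 in WT cells (limma adjusted p = 0.514). Of its 6 probe sets, 4 passed the filter, and all lay between 1.95 and 187. The summed signal of the 8 markers of plasmacytoid dendritic cells was 2780 to 2895 in KO db-cAMP arrays, 3258 to 3285 in KO vehicle arrays, 2901 to 2974 in WT db-cAMP arrays and 3343 to 3608 in WT vehicle arrays. Its largest parts were Bst2, Klk1 and Pacsin1, with group means of 1411 to 1841, 268 to 792 and 383 to 612. Siglech and Spib were dim, with group means of 15.6 to 87.6 and 62.6 to 148. Of the 8, 0 passed for db-cAMP against vehicle in KO cells and 2 in WT cells, Klk1 and Pacsin1, each lower. Under db-cAMP 2 were higher in KO than in WT cells and 0 lower, and under vehicle 1, Ly6d, was lower. Of all genes tested, 8.38%, 35%, 29.2% and 10.8% passed in these comparisons, in that order. The summed signal of the 7 measured B cell markers was 550 to 596 in KO db-cAMP arrays, 605 to 615 in KO vehicle arrays, 748 to 969 in WT db-cAMP arrays and 710 to 775 in WT vehicle arrays. Of the 6 B cell markers tested, 0 passed for db-cAMP against vehicle in either genotype. Under db-cAMP 2 of them, Ms4a1 and Cd79b, were lower in KO than in WT cells, and under vehicle 0 passed. The part of plasmacytoid dendritic cells and B cells in the signals of Tcf4 and the other E-protein genes was not tested.

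**Figure D4:**
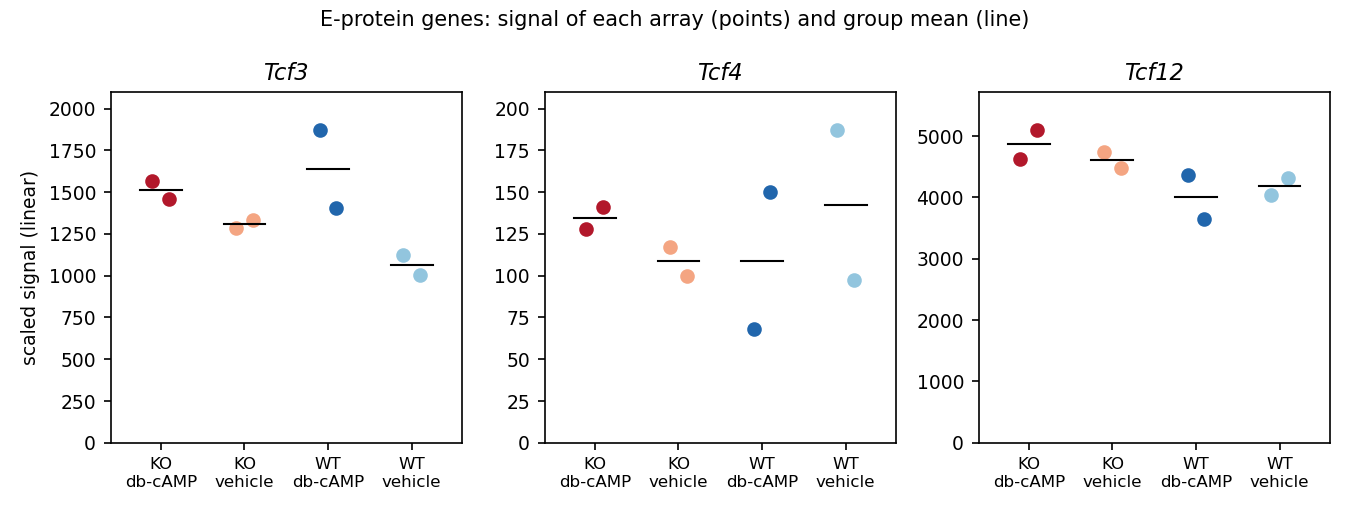
Scaled linear signal (vertical axis) of the main probe sets of Tcf3, Tcf4 and Tcf12 in each array (points), with the group mean as a line, for the same 4 groups. Tcf3 has its highest mean in WT db-cAMP cells (1642, against 1066 in WT vehicle cells), and all 4 KO arrays of Tcf12 lie above the WT arrays.

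By genotype, 3 of the 6 genes were higher and 1 was lower in KO cells than in WT cells under db-cAMP, where 29.2% of all genes tested passed (15.9% higher and 13.3% lower). Id1, Id3 and Tcf12 were the higher ones and Id2 the lower one. Without WT db-cAMP replicate 2 or without KO db-cAMP replicate 2 fewer of the 6 passed, and fewer of all genes did too. Under vehicle 0 of the 6 passed limma's test, where 10.8% of all genes did (5.06% higher and 5.78% lower). At an unadjusted limma p under 0.05 there was 1, Tcf3, with a log2 difference of 0.30 ± 0.13 and an adjusted p of 0.166. For the interaction, 1 gene was above 0 and 1 below, Id3 and Id2, where 11.8% of all genes passed (6.7% above and 5.09% below). Of the 10 other probe sets, 3 passed between genotypes under db-cAMP, against 24.2% of all probe sets, 1 under vehicle, against 10.3%, and 1 for the interaction, against 6.83%. The KO and WT comparisons share arrays with these, so the counts are not independent of each other.

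Within each array, the change of Id2 relative to Id3 combines both results. The log2 ratio of Id2 to Id3 was higher with db-cAMP than with vehicle by 1.54 in KO cells and by 3.27 in WT cells. For Tcf3 relative to Id3 the difference was 1.40 in KO cells and 2.84 in WT cells. For Tcf12 relative to Id3 it was 1.27 in KO cells and 2.16 in WT cells. Relative to Id2, Tcf3 went the other way in WT cells, with a difference of -0.43. In KO cells that difference was -0.14, and the arrays overlapped. Set to the WT vehicle mean, they had 0.33 and -0.05 with db-cAMP and 0.24 and 0.31 with vehicle. Tcf3 stands here for its main probe set, while 1427764_a_at changed by -0.29 in WT cells. The differences given are those of changes between probe sets, as a description without a test.

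**Figure D5:**
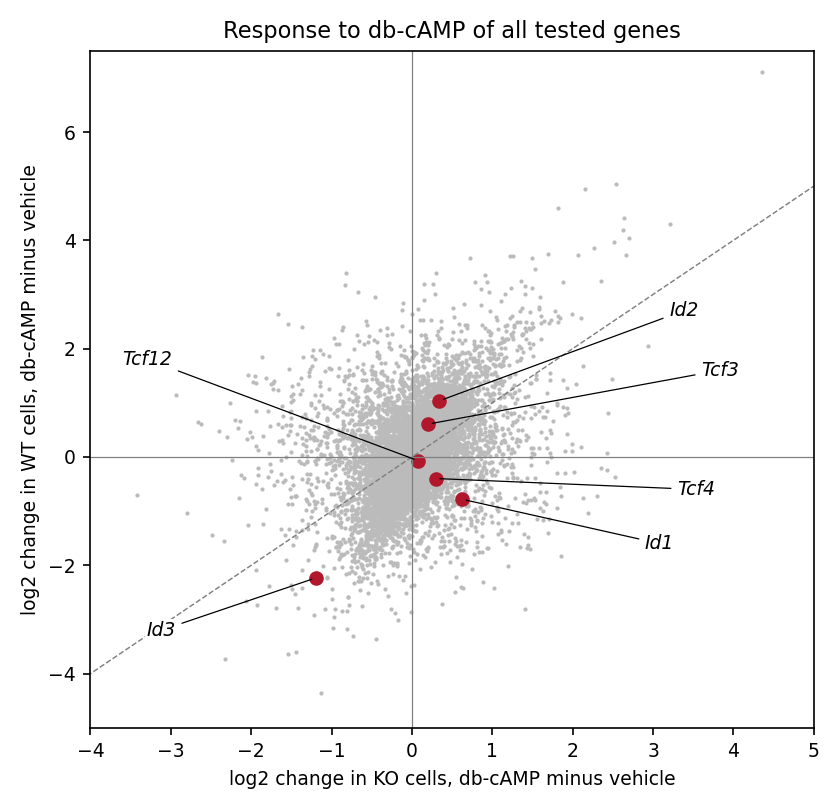
Log2 change under db-cAMP against vehicle in KO cells (horizontal axis) and WT cells (vertical axis) for all 12091 genes tested (grey), with the 6 ID and E-protein genes marked (red) and the line of equal change dashed. Id3 lies at the low end (-1.20 and -2.23), and Id2 and Tcf3 lie above the dashed line.

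By Pearson's r of log2 values over the 8 arrays, the genes most like Id3 were Ptger2, a receptor for prostaglandin E that raises cAMP (r = 0.997), Utp4 (r = 0.994) and Tgif2 (r = 0.994). Those most like Id2 were Ctsl, a lysosomal protease gene (r = 0.997), Nagk (r = 0.994) and Aff1 (r = 0.993). For Tcf3 they were Vcpip1 (r = 0.981), Ift46 (r = 0.971) and Ttll1 (r = 0.969). For Tcf12 they were Ppp2r3d (r = 0.966), Inhba (r = 0.962) and Ankrd11 (r = 0.957). The dim genes had Angel2 (r = 0.963), B330016D10Rik (r = 0.961) and Foxm1 (r = 0.940) for Id1, and Pigb (r = 0.964), Sowahb (r = 0.934) and Samd5 (r = 0.929) for Tcf4. With 8 arrays in 4 groups and all tested genes searched, high values arise for any profile, and they say nothing of shared function.

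Lists of genes around the pathway were read from the same fit. Of 17 regulators known to act upstream of Id genes, all were tested. In KO cells 3 were higher and 4 lower under db-cAMP at the threshold, and in WT cells 5 were higher and 6 lower, where 8.38% of all genes tested passed in KO cells and 35% in WT cells. The list's median change was 0.04 in KO cells and -0.01 in WT cells, against -0.00 and 0.01 over all genes tested. The EGR factors, which bind the Id3 gene in thymocytes, were among those that fell. Egr2 had 1445 and 1485 in KO db-cAMP arrays, 3379 and 3480 in KO vehicle arrays, 339 and 495 in WT db-cAMP arrays and 2989 and 3247 in WT vehicle arrays, so its lowest arrays were the WT db-cAMP ones. It fell by 1.22 log2 in KO cells (limma adjusted p = 8.82e-05) and by 2.91 log2 in WT cells (limma adjusted p = 3.35e-09). Egr3 fell by 0.97 in KO cells and fell by 2.96 in WT cells. Egr1 fell by 0.87 in KO cells and fell by 1.80 in WT cells, and Myc, a growth regulator, fell by 0.52 in KO cells and fell by 1.98 in WT cells. The 5 that were higher in WT cells were Tgfbr2 (1.45), Smad1 (0.95), Stat5b (0.72), Stat5a (0.55) and Smad4 (0.43). Besides the EGR factors and Myc, the lower ones in WT cells were Smad3 (-0.74) and Tgfbr1 (-0.52). A link between any of these regulators and the changes of Id2 or Id3 was not tested.

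Of 21 genes known as E-protein targets in lymphocytes, 13 were tested. At the threshold, 3 were higher and 2 lower under db-cAMP in KO cells, with 4 higher and 2 lower in WT cells, beside 8.38% and 35% of all genes tested. The median change was 0.36 in KO cells and 0.38 in WT cells, against -0.00 and 0.01 over all genes tested. Socs3, a feedback inhibitor of cytokine signalling, had 583 and 654 in KO db-cAMP arrays, 202 and 237 in KO vehicle arrays, 2292 and 2263 in WT db-cAMP arrays and 309 and 398 in WT vehicle arrays. Its db-cAMP arrays lay above all vehicle arrays, and it rose by 1.48 log2 in KO cells (limma adjusted p = 4.18e-05) and by 2.68 log2 in WT cells (limma adjusted p = 1.59e-08). Il7r, the interleukin-7 receptor chain, rose by 0.68 in KO cells (limma adjusted p = 0.0428) and 1.40 in WT cells (limma adjusted p = 5.71e-05). Cdk6, a G1 kinase, fell by 0.61 in KO cells and fell by 1.09 in WT cells. Gfi1, a transcriptional repressor, fell by 1.60 in WT cells (limma adjusted p = 4.42e-08), and its change in KO cells was -0.19 (limma adjusted p = 0.337). Several of these genes also answer to other factors, and both directions occurred.

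Of 21 genes of cofactors and turnover of ID and E proteins, 17 were tested. At the threshold, 4 were higher and 0 lower under db-cAMP in KO cells, with 3 higher and 1 lower in WT cells, beside 8.38% and 35% of all genes tested. Their median change was 0.19 in KO cells and 0.05 in WT cells, against the same medians over all genes. Kat2b, an acetyltransferase that acts with E proteins, rose by 0.47 in KO cells and 0.94 in WT cells. Crebbp, which encodes the coactivator CBP, rose by 0.42 in KO cells and 0.30 in WT cells. Usp1, a deubiquitinase known in human cells to stabilise ID proteins, fell by 0.66 in WT cells (limma adjusted p = 9.24e-06), with a change of -0.15 in KO cells (limma adjusted p = 0.275) and an interaction of 0.51 (limma adjusted p = 0.00592). Smurf2, a ubiquitin ligase, rose by 0.51 in WT cells (limma adjusted p = 0.012), with a change of 0.20 in KO cells (limma adjusted p = 0.492).

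Of 17 helix-loop-helix relatives, 16 were on the arrays, and 6 were tested. The 1 that passed in each genotype was Bhlhe40, a repressor of the same superfamily that is induced in activated T cells, and it rose by 0.43 in KO cells (limma adjusted p = 0.0336) and 0.94 in WT cells (limma adjusted p = 1.80e-05). Of all genes tested, 8.38% passed in KO cells and 35% in WT cells. The list's median change was -0.12 in KO cells and 0.43 in WT cells, against -0.00 and 0.01 over all genes tested. The tested relatives other than Bhlhe40 were dim, and their changes had standard errors of 0.56 to 0.75, so these medians are imprecise. Id4, the fourth ID gene, was tested at a dim signal of 19.8 to 74.3, and its change was -0.79 in KO cells (limma adjusted p = 0.636) and 0.62 in WT cells (limma adjusted p = 0.566).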

How the data were processed

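Gene expression was measured on 8 Affymetrix arrays, 2 for each of 4 groups taken from the sample titles. The deposited table holds the authors' intensity values, linear and 1 per probe set and array, made with MAS5 per the submitters' processing notes. The MAS5 version and settings are not stated there. The trimmed mean was 500.004 to 500.005 in every array, so the values had been scaled before deposit and total mRNA per cell cannot be compared. Array medians were 56.2 to 70.5. Precision is limited by the number of arrays, since there is no read depth.

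Of 45101 probe sets, 64 were controls. The platform annotation gave 1 symbol to 34945, several to 932 and none to 9160, and only those with 1 symbol were used, covering 18193 genes. Each gene was represented by its brightest probe set, by the mean of log2 values over all arrays. Values were taken as log2(value + 5.48), where the added constant is the 10th percentile and shrinks the changes of dim genes. A gene was tested when it exceeded the median signal of the array on 2 or more arrays.

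limma 3.58.1 in R 4.3.3 (lmFit, then eBayes with an intensity trend) was fitted to all 8 arrays, with Benjamini-Hochberg adjustment over all genes tested and a threshold of 0.05. Errors of log2 changes are standard errors, and those of means are SDs. Each other probe set was read from a second fit over all probe sets. The fit was tested on simulated data. Python 3.11.15 and matplotlib 3.10.9 drew the figures.

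The 6 genes and the lists were chosen with earlier results of these data known. Named beside the members are, per member, the 3 most similar genes, and per list up to 4 changed genes with the largest change in WT cells. Id4, the 5 upstream regulators higher in WT cells, Smad3, Tgfbr1 and the single genes named from the marker lists were added after their values were seen. The titles share replicate numbers between groups, but deviations of same-numbered arrays correlated between -0.0199 and 0.0206, so the numbers were not taken as pairs. The alternatives tried were other offsets, no filter, quantile and 75th percentile scaling, no intensity trend, averaged or single probe sets, a replicate block, only the arrays compared, and each array left out.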

Additional observations from a re-analysis of the deposited data

Results flagged for a closer look

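The response of Id3 to db-cAMP differed between KO and WT cells by 1.04 on the log2 scale, because the interaction term passed its test and the fall was smaller in KO cells. The response of Id2 differed by -0.70, so its rise was smaller in KO cells. Its second probe set, 1422537_a_at, differed by -1.22 in the same direction. Groups of 2 arrays are too small to test a single array for standing apart.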

How the results depend on the processing

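The falls of Id3 in KO and WT cells, its difference between genotypes under db-cAMP and the rise of Id2 in WT cells passed in all 18 alternatives. The interaction passed in 16 of 17 alternatives for Id3 and in 15 of 17 for Id2. The Id2 difference between genotypes under db-cAMP passed in 17 of 18. It was -0.52 with probe sets averaged (limma adjusted p = 0.0649). Of 534 member values under alternatives, 488 kept direction and side of the threshold, 31 lost the threshold, 2 gained it and 13 changed direction. The causes were not tested. Each group has 2 arrays, and dim genes such as Id1 and Tcf4 are limited by their signal over background.

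Without the intensity trend, genes changed numbered 188 rather than 1013 for db-cAMP in KO cells, 251 rather than 1311 for KO against WT under vehicle and 261 rather than 1425 for the interaction, and members changed numbered 1, 0 and 0, with 2 for KO against WT under db-cAMP. In that setting 0 other probe sets of the family passed between genotypes under db-cAMP, under vehicle or for the interaction, whose Id3 value had an adjusted p of 0.0669 by limma. With probe sets averaged, the counts were 497, 794 and 709 genes in the same order, with 1 member in KO cells, 2 between genotypes under db-cAMP and 1 for the interaction. With every probe set tested, the base was 26527 probe sets rather than 12091 genes. Passing were 6890 (26%) for db-cAMP in WT cells, 6431 (24.2%) for KO against WT under db-cAMP and 2733 (10.3%) under vehicle. In the gene fit the shares were 35%, 29.2% and 10.8%, in that order. In the fit over probe sets 1 member passed in KO cells. With an equal 75th percentile, 2 members passed between genotypes under db-cAMP and 1 in KO cells. Other probe sets that passed between genotypes under db-cAMP numbered 1 there and 1 with quantile normalization, rather than 3. The percentile scaling shifted the median of all genes to -0.12 for KO against WT under db-cAMP, and its split was 1371 higher and 2243 lower, against 1926 and 1603. Under vehicle it was 402 and 1177, against 612 and 699, and for db-cAMP in KO cells 447 and 585, against 568 and 445. With no filter 1 member passed in KO cells, and with only the arrays compared 1 member and 1 other probe set did.

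With the replicate block, 1 member passed in KO cells rather than 2, as Id2 had a limma adjusted p of 0.0545. The block changed no other count of members (4 between genotypes under db-cAMP, 0 under vehicle, 3 in WT cells and 2 for the interaction), and 935 genes passed in KO cells.

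With probe sets averaged, the value of Tcf3 between genotypes under db-cAMP was 0.21, those of Tcf12 and Tcf4 in WT cells were 0.49 and 0.10, and the interaction of Tcf12 was -0.16, each opposite in sign to the reported value. Id2 between genotypes under vehicle was -0.028 with quantile normalization and -0.069 with an equal 75th percentile. None of these values passed in the reported fit.

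Leaving out each array in turn gave 446 to 1089 genes for db-cAMP in KO cells, 617 to 1391 for KO against WT under vehicle and 891 to 1336 for the interaction. Members numbered 1 to 2 in KO cells and 2 to 4 between genotypes under db-cAMP. Other probe sets numbered 1 to 3 between genotypes under db-cAMP, 0 to 1 under vehicle, 1 to 2 in WT cells and 0 to 1 for the interaction. Values ran from -0.31 to 0.10 for Tcf3 and from -0.16 to 0.93 for Tcf4 between genotypes under db-cAMP, from -0.74 to 0.077 for Id1 and from -0.76 to 0.15 for Tcf4 between genotypes under vehicle, from -0.20 to 0.061 for Tcf12 and from -0.94 to 0.15 for Tcf4 in WT cells, and from -0.086 to 0.49 for probe set 1422537_a_at in KO cells.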
